A study of Mus musculus with 16 samples.

Results

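The genes described are Ccr1, Ccr2, Ccr7, Ccrl2, Cxcr3, Cxcr4 and Cx3cr1, which encode 7 receptors of the chemokine receptor family, and Cx3cl1, which encodes fractalkine, the ligand of Cx3cr1. They were matched by name in the deposited table of 55487 genes, with earlier results of these data known, and all 8 passed the filter on low counts that 12372 genes of the table passed. Chemokines are secreted or membrane-bound proteins that guide leukocytes, and their receptors signal through heterotrimeric G proteins to PI3K, phospholipase C and Rac before G protein-coupled receptor kinases and arrestins turn them off. In monocytes and macrophages, Ccr2 is known for recruitment from the blood, Cx3cr1 for the adhesion and maintenance of resident cells, and Cxcr4 for retention in the bone marrow. Fractalkine is made as a membrane protein that the proteases Adam10 and Adam17 release from the cell surface.

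RNA was sequenced from bone marrow-derived macrophages (BMDMs), primary cells that are differentiated in a dish from marrow precursors, of WT Balb/c mice with an age of 8 weeks. BMDMs were kept in DMEM, the plain medium (n = 2), in DMEM with ruxolitinib (DMEM + Rux, n = 3), in conditioned media of 4T1 mouse mammary tumor cells (CM, n = 3), in CM together with ruxolitinib at 0.5 μM (CM + Rux, n = 3) and in CM with both that dose and IKK-16 at 0.8 μM (CM + Rux + IKK-16, n = 3). The CM + Rux samples carry a label of 4 h, and a further pair of CM + Rux samples carries a label of 2 h (n = 2). The labels of DMEM, DMEM + Rux, CM and CM + Rux + IKK-16 give no time. Comparisons of CM + Rux with these groups take the times as equal. By the study's methods, BMDMs were kept without serum before CM, and the cells given CM with ruxolitinib met the drug already in that step. The dose of ruxolitinib in DMEM is not given in the labels. Ruxolitinib is an inhibitor of JAK1 and JAK2, the kinases that activate STAT proteins, and IKK-16 is an inhibitor of the IKK complex upstream of NF-κB. Total counts ranged from 18449388 to 46215853 fragments per sample. The sources used here do not say whether replicates came from separate mice or cultures, so that p-values measure the spread between these samples, which may be technical.

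The macrophage identity of the samples was checked with marker lists. The 8 macrophage markers, which include Lyz2, Csf1r and Adgre1, summed to between 40148 and 57183 CPM per sample (counts set to a common library size, here scaled by relative log expression, RLE), and all 8 passed the filter. The 7 epithelial markers, included because 4T1 is an epithelial line, summed to between 0 and 1.45 CPM and 0 of them passed the filter. Their sums were highest in CM, with 0.774 to 1.45 CPM, against 0 to 0.118 in DMEM and 0.0447 to 0.231 in DMEM + Rux. The CM groups with ruxolitinib had 0.121 to 0.890 CPM. The 7 neutrophil markers summed to between 0.236 and 3.24 CPM, with S100a8 as their most abundant gene and the only one that passed, and S100a8 was higher in CM than in DMEM (log2 fold change 2.97, SE 0.45, adjusted p = 6.225e-05, edgeR). The 10 T and NK cell markers summed to between 6.97 and 15.2 CPM per sample, and most of this was Cd4, with 6 or 7 of the 10 genes at 0 counts. The B cell list held 2 genes of 6 that passed, the dendritic cell list 3 of 8 and the fibroblast list 4 of 6, and the highest sums of these lists in any sample were 22.1, 55.6 and 20.9 CPM, with Cd22, Itgax and Col1a2 as their most abundant genes. Among these markers, Lck (log2 fold change 1.62) and Batf3 (0.99) were higher and Cd79b (-2.95) was lower in CM than in DMEM. Of the macrophage list, Cd14 (2.68) and Itgam (0.99) were higher and Csf1r (-0.61) was lower there. Mertk, a macrophage receptor for dying cells, was lower in CM + Rux than in CM (-1.71), and its response to ruxolitinib was lower in CM than in DMEM (log2 difference -1.95). With both inhibitors against CM, Mertk (-0.95), Itgam (-0.65) and Batf3 (-2.10) were lower and Cd79b (1.55) was higher. At 2 h Zbtb46 (2.41), Batf3 (1.38) and Mertk (1.25) were higher and S100a8 (-1.25) was lower than at 4 h. In bulk RNA, fewer cells of a type and less RNA per cell cannot be told apart, and the part of these other cells in the results below was not tested.

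The 8 genes lie on 5 chromosomes of the mouse genome build GRCm38. Ccrl2 (ENSMUSG00000043953, chr9:111054486-111057519), Cx3cr1 (ENSMUSG00000052336, chr9:119901616-120069879), Ccr1 (ENSMUSG00000025804, chr9:123962124-123968692) and Ccr2 (ENSMUSG00000049103, chr9:124101950-124113557) share chromosome 9. Cxcr4 (ENSMUSG00000045382) was at chr1:128588199-128592293, Cx3cl1 (ENSMUSG00000031778) at chr8:94772009-94782427, Ccr7 (ENSMUSG00000037944) at chr11:99144196-99155077 and Cxcr3 (ENSMUSG00000050232) at chrX:101731535-101734269. Ccr2 and Cx3cl1 are on the plus strand and the other 6 genes on the minus strand. Cx3cr1 has 78 exonic bases in common with Gm33858 on the opposite strand, which the strand-specific counting keeps apart. Of the stretches of 50 bases in the transcripts of Ccr2, 1.91% also occur in transcripts of other genes, and 0.27% of those of Cx3cr1 do. None of these stretches was shared for the other 6 genes.

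Because IKK-16 blocks the kinases upstream of NF-κB and ruxolitinib those upstream of STAT proteins, the 250 bases before the RefSeq transcription starts (GRCm38.p6) were searched on both strands for the NF-κB consensus and for the GAS element TTCNNNGAA bound by STAT proteins. The table of promoters held 7 of the 8 genes, without Ccr7. The NF-κB consensus was present in Ccr1, from position -74 to -65 before the start, and before the most upstream of the 3 starts of Ccrl2, from position -56 to -47, where the same bases match on both strands. Of all 32851 promoters of this length, 7.25% held the NF-κB consensus and 7.02% the GAS element, and the GAS element was found in none of the 7 genes. The sequences of Ccrl2 and Ccr1 are shown with the match in capitals, beside those of Cx3cl1, whose levels followed Ccrl2 most closely among these genes, and Cxcr4, which differed most with IKK-16. The sequences belong to chr9:111057519-111057768 (minus strand), chr9:123968693-123968942 (minus strand), chr8:94771930-94772179 (plus strand) and chr1:128592300-128592549 (minus strand).
Ccrl2: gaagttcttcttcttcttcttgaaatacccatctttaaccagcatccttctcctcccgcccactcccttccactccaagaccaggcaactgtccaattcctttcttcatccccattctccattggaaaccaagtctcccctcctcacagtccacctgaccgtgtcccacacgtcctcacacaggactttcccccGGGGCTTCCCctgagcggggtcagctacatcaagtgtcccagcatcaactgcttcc
Ccr1: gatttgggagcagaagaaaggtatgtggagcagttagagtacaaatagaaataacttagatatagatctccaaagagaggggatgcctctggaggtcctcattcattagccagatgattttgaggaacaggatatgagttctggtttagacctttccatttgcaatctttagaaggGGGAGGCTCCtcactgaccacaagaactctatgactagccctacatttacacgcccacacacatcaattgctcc
Cx3cl1: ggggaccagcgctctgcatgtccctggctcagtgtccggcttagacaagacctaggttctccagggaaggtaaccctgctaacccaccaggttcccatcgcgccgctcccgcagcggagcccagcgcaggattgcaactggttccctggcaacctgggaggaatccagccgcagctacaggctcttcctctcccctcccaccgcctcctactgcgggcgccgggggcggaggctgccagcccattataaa
Cxcr4: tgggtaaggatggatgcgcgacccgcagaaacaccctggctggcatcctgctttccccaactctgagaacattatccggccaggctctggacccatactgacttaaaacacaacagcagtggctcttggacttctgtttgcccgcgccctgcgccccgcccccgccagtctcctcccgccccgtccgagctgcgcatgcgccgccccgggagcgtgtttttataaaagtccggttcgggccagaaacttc
A match of letters is a description of the sequence and was not tested as a binding site.

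Levels of different genes were compared per length of exons (RPKM). In DMEM, Cxcr4 had the highest level with 207 ± 17.6 RPKM (SD, n = 2), followed by Cx3cr1 with 27.4 ± 3.48 RPKM and Ccrl2 with 13.5 ± 3.38 RPKM. Ccr2 had 5.21 ± 0.176 RPKM, and Cxcr3, Ccr1, Cx3cl1 and Ccr7 lay between 1.22 and 0.164 RPKM. In CM the order differed, with Ccrl2 at 104 ± 19.9 RPKM (SD, n = 3), Ccr1 at 50.7 ± 14.4 RPKM and Cxcr4 at 47.0 ± 9.36 RPKM as the highest. Cxcr3 was lowest in CM with 0.304 ± 0.224 RPKM, and Ccr7 reached 1.81 ± 0.844 RPKM.

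**Figure D1:**
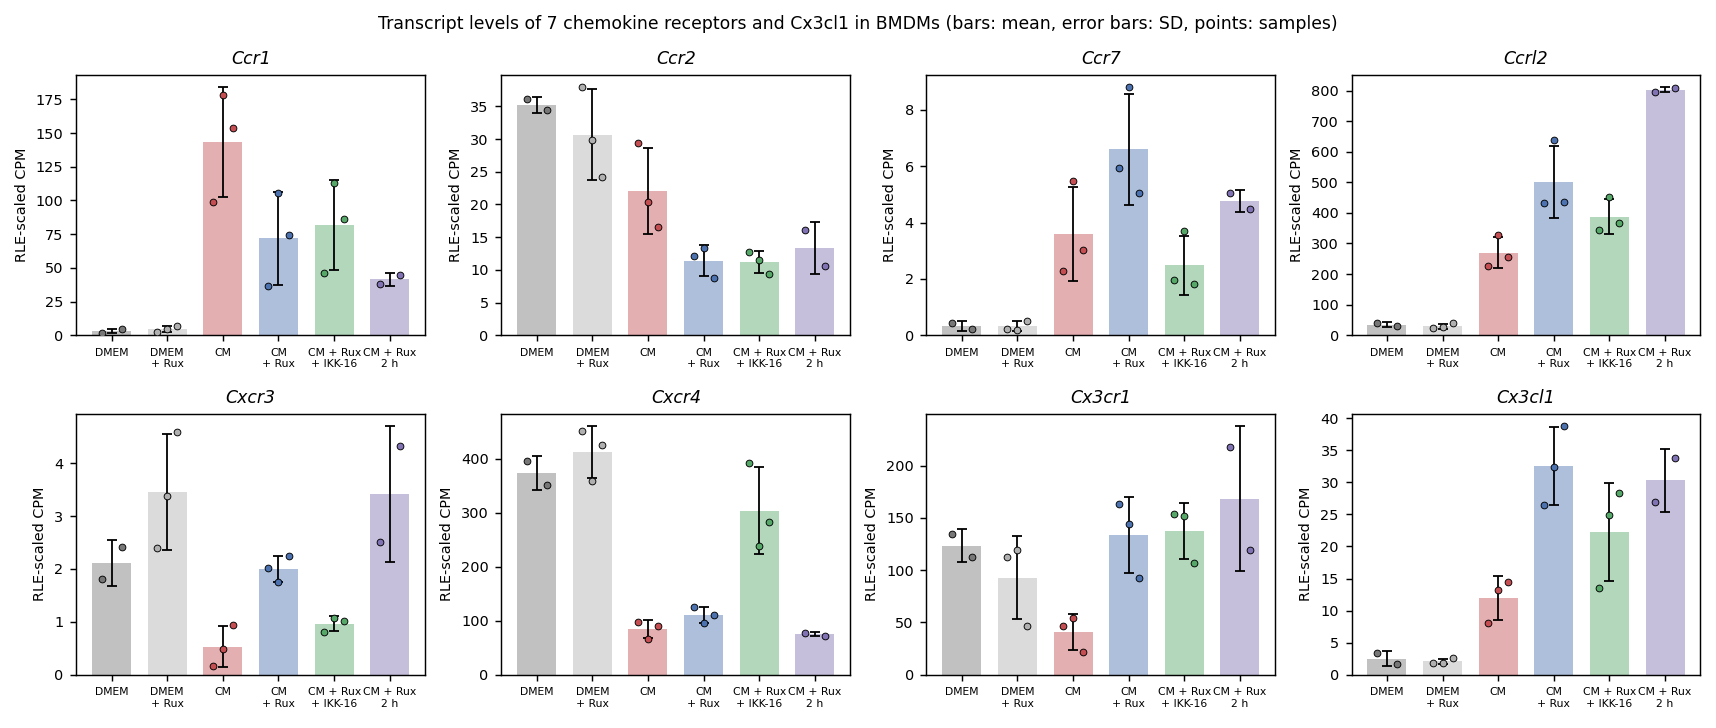
RLE-scaled CPM (vertical axes, linear, from 0) of the 8 genes in each of the 6 groups, with bars for the mean, error bars for the SD and points for the samples. Ccr1, Ccr7, Ccrl2 and Cx3cl1 were low in both DMEM groups and higher in every CM group, Cxcr4 was high in DMEM and in CM + Rux + IKK-16, and Cx3cr1 and Cxcr3 were lowest in CM.

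The comparison of CM with DMEM addresses the response of macrophages to soluble factors of tumor cells. All 8 genes differed between these groups by the test (edgeR quasi-likelihood, adjusted p under 0.05 and log2 fold change beyond 0.5): Ccr1, Ccr7, Ccrl2 and Cx3cl1 were higher in CM and Ccr2, Cx3cr1, Cxcr3 and Cxcr4 were lower. Of all genes tested, 20.9% were called higher and 24.1% lower. Against scaling by total counts, RLE shifted log2 fold changes of this comparison by 0.31. With total counts the called genes of the table split into 1536 higher and 4606 lower in place of 2584 and 2980, and the 8 genes kept their directions and calls.

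Among the receptors for inflammatory chemokines, Ccr1, a receptor for Ccl3, Ccl5, Ccl6, Ccl7 and Ccl9, had the largest rise. Its level was 1.83 and 4.38 CPM in DMEM and 98.8, 178 and 153 CPM in CM. The lowest CM sample was far above the highest DMEM sample, and the log2 fold change was 5.58 (SE 0.63, adjusted p = 4.211e-06), or 47.8-fold. Without DMEM replicate 2, the higher of both, the log2 fold change of Ccr1 was 6.29. Ccr2, the receptor for Ccl2 and Ccl7, had 36.1 and 34.4 CPM in DMEM and 29.3, 20.3 and 16.6 CPM in CM. Its DMEM samples were close together and its CM samples spread out below them, with a log2 fold change of -0.68 (SE 0.25, adjusted p = 0.02755). This call was lost without CM replicate 2 (adjusted p = 0.0751) or CM replicate 3 (0.1027). It was also lost without DMEM replicate 1 or 2, with log2 fold changes of -0.65 and -0.71. In a fit with the replicate number as a block, Ccr2 was called (-0.54, adjusted p = 0.0009548).

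Ccr7, which guides cells towards Ccl19 and Ccl21 in lymph nodes, was near the limit of detection in DMEM, with 0.443 and 0.205 CPM, that is 15 and 5 counts. In CM it was at 2.28, 5.47 and 3.01 CPM. The rise of 3.42 on the log2 scale (SE 0.55, adjusted p = 0.0001093) started from few counts, and was 4.14 for Ccr7 without DMEM replicate 1. Ccrl2, an atypical receptor that binds chemerin without known G protein signaling, rose from 41.3 and 28.9 CPM to 228, 328 and 255 CPM. All CM samples were above both DMEM samples by a wide margin (log2 fold change 2.94, SE 0.27, adjusted p = 6.649e-07).

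Of the receptors for CXC chemokines, Cxcr4, the receptor for Cxcl12, fell from 396 and 351 CPM in DMEM to 98.3, 65.9 and 90.5 CPM in CM. By RPKM it was the most abundant of the 8 transcripts in DMEM, and lay below Ccrl2 in CM (log2 fold change -2.14, SE 0.20, adjusted p = 7.371e-07). Cxcr3, the receptor for Cxcl9, Cxcl10 and Cxcl11 that is best known from T cells, was scarce in all samples, with 1.80 and 2.41 CPM in DMEM and 0.167, 0.475 and 0.937 CPM in CM. The lowest CM value stands for 3 counts, and the log2 fold change was -1.93 (SE 0.43, adjusted p = 0.001528), or -2.54 for Cxcr3 without CM replicate 3.

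The receptor and the ligand of the fractalkine pair moved in opposite directions. Cx3cr1 fell from 134 and 112 CPM to 46.8, 54.2 and 21.7 CPM (log2 fold change -1.59, SE 0.41, adjusted p = 0.004054). CM replicate 3 was the lowest of all 16 samples. Cx3cl1 rose from 3.31 and 1.64 CPM to 8.12, 13.3 and 14.5 CPM (log2 fold change 2.25, SE 0.37, adjusted p = 0.0001418), or 2.88 without DMEM replicate 1. Adam17, a protease that sheds fractalkine, was lower in CM with 387 ± 24.0 CPM (SD, n = 3) against 715 ± 10.4 CPM (SD, n = 2) in DMEM (log2 fold change -0.88, SE 0.09, adjusted p = 1.323e-06). Adam10, which also sheds it, had a log2 fold change of -0.03 (SE 0.07, adjusted p = 0.7113).

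Most of the expressed ligands of these receptors rose in CM as well. Of 16 ligands listed, 8 passed the filter, and 7 of them were higher in CM and 0 lower. The shares of all genes were 20.9% and 24.1%. The monocyte attractants Ccl7 and Ccl2 had log2 fold changes of 7.16 (SE 1.39) and 6.57 (SE 1.06), and Ccl5 had 5.70 (SE 0.38). Ccl9, a ligand of Ccr1, went from 919 and 933 CPM in DMEM to 3305 ± 504 CPM (SD, n = 3) in CM. Cxcl10, a ligand of Cxcr3, had 16.4 ± 0.854 CPM in DMEM and 7.01 ± 6.61 CPM in CM and was not called (log2 fold change -1.18, adjusted p = 0.1373). Ccl19 and Ccl21a, the ligands of Ccr7, had 0 counts in all samples, and Cxcl12, the ligand of Cxcr4, had at most 16 counts in any sample. The median log2 fold change of the 8 ligands tested was 2.42, against -0.00496 for all genes.

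Other genes of the pathway were called in both directions, beside the 20.9% of all genes called higher and 24.1% called lower in this comparison. Of 18 other chemokine receptors, 4 passed the filter and 3 were higher in CM, among them Ccr3 (log2 fold change 1.64, SE 0.50) and the chemerin receptor Cmklr1 (1.30, SE 0.14). Of 15 genes of signal transduction, 14 were tested, with 5 higher and 4 lower, led by the PI3Kγ subunit Pik3r5 (log2 fold change 1.40, SE 0.12) and the G protein subunit Gng2 (-1.69, SE 0.15). Of 13 genes that turn receptors off, all were tested, with 1 higher, the receptor kinase Grk3 (0.77, SE 0.27), and 5 lower, led by Rgs2 (-3.49, SE 0.38), a regulator that ends G protein signaling. The medians of these 3 lists were 1.31, 0.08 and -0.41.

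**Figure D2:**
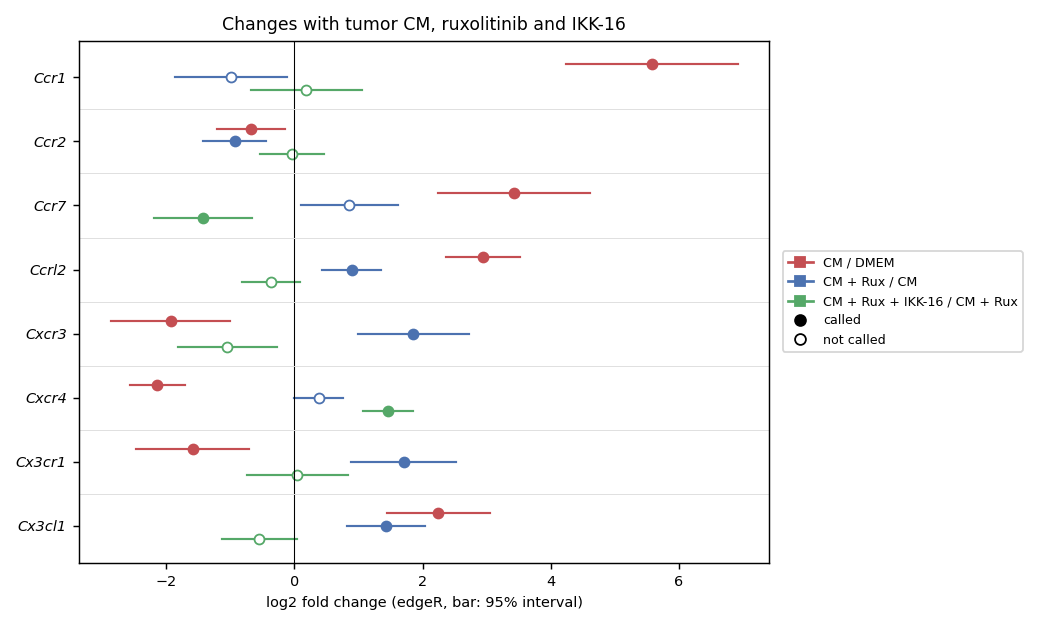
Log2 fold changes (horizontal axis) of the 8 genes for CM against DMEM, CM + Rux against CM, and CM + Rux + IKK-16 against CM + Rux, with 95% intervals as lines and filled points where a gene was called. The first 2 comparisons share the CM samples and the last 2 share the CM + Rux samples. Cx3cr1, Cxcr3, Ccr1 and Cxcr4 lie on opposite sides of 0 for CM and for ruxolitinib. Ccrl2, Cx3cl1 and Ccr7 lie above 0 for both, and Ccr2 lies below 0 for both. Ccr1, Ccr7 and Cxcr4 were not called with ruxolitinib.

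Ruxolitinib was added to CM to examine the response of macrophages when JAK signaling is blocked. Cx3cl1, Cx3cr1, Cxcr3 and Ccrl2 were higher in CM + Rux than in CM, and Ccr2 was lower. Genome-wide 1.2% of genes were called higher and 2.13% lower, against 4 and 1 of these 8. Ccr1, Ccr7 and Cxcr4 were not called. The comparison shares its CM samples with the comparison above, so that a low value in CM enters both.

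Cx3cl1 had 26.5, 32.4 and 38.8 CPM in CM + Rux, each above all CM samples (8.12 to 14.5 CPM). The rise on top of that by CM was 2.69-fold (log2 fold change 1.43, SE 0.28, adjusted p = 0.008877), and it was the only one of the 5 calls that remained under all 14 alternatives. Its receptor Cx3cr1 had 163, 144 and 92.7 CPM (log2 fold change 1.70, SE 0.38, adjusted p = 0.01932). The CM + Rux samples overlapped with those of DMEM, which had 112 and 134 CPM. The call on Cx3cr1 was lost without CM replicate 1 (adjusted p = 0.05232), CM replicate 3 (0.06479) or CM + Rux replicate 1 (0.08581).

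Cxcr3 had 2.02, 1.74 and 2.24 CPM in CM + Rux, all above the CM samples (log2 fold change 1.86, SE 0.40, adjusted p = 0.01606). These values rest on 44 to 75 counts per sample, and the call was lost without CM replicate 2 (adjusted p = 0.08862) or CM + Rux replicate 1 (0.05769). Without CM replicate 3 the log2 fold change of Cxcr3 was 2.46. Ccrl2 had 432, 637 and 435 CPM, all above the CM samples (log2 fold change 0.89, SE 0.21, adjusted p = 0.02741). Its call was lost without CM replicate 1 (adjusted p = 0.1138), CM replicate 3 (0.08604) or CM + Rux replicate 2 (0.08977). Ccr2 had 12.1, 13.3 and 8.70 CPM, all below the CM samples, and was called lower in both comparisons (log2 fold change -0.93, SE 0.23, adjusted p = 0.03432). This call was lost without CM replicate 1 (adjusted p = 0.1471), CM replicate 2 (0.07287), CM + Rux replicate 1 (0.09871) or CM + Rux replicate 3 (0.1341). With only the CM and CM + Rux samples in the fit, Ccr2 (adjusted p = 0.09019) and Cxcr3 (0.07211) were not called. A fit with the replicate number as a block kept the calls on all of these genes. Its adjusted p was 8.084e-05 for Ccr2, 5.237e-06 for Cx3cr1, 0.0001602 for Cx3cl1, 0.0006301 for Cxcr3 and 0.007701 for Ccrl2.

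The other 3 genes did not pass the test, and their samples overlapped between the groups. Ccr1 had 36.4, 105 and 74.1 CPM in CM + Rux, and the highest of these was above the lowest CM sample (0.501 times its level in CM, adjusted p = 0.2365). Ccr7 had 5.93, 8.82 and 5.04 CPM, of which the last lay within the CM range (log2 fold change 0.86, SE 0.35, adjusted p = 0.2377). Cxcr4 had 125, 95.1 and 110 CPM (log2 fold change 0.38, SE 0.18, adjusted p = 0.3391), with a 95% interval of -0.01 to 0.76. Replicates with the same number deviated together, and a fit with the replicate number as a block called 7 of the 8 genes. In this blocked fit Ccr1 was lower (log2 fold change -1.07, adjusted p = 0.0003892) and Ccr7 higher (0.89, adjusted p = 0.03885), as both also were without a filter on low counts (adjusted p = 0.00729 and 0.04894), and the called genes of the whole table numbered 745 in place of 412.

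With ruxolitinib in CM, 1.2% of all genes were called higher and 2.13% lower, beside the genes of the pathway that follow. Of the 8 ligands tested, 0 were called, with a median log2 fold change of -0.09, and 3 of them had an unadjusted p under 0.05 by edgeR. Ccl2 had 121 ± 70.1 CPM in CM and 123 ± 90.4 CPM in CM + Rux. Means of other ligands lay further apart in both directions. Cxcl10 had 7.01 ± 6.61 and 1.66 ± 1.61 CPM, Ccl6 235 ± 49.1 and 153 ± 42.8 CPM, and Ccl3 443 ± 81.4 and 593 ± 35.0 CPM. Ccr9, a scarce receptor, was higher (log2 fold change 1.46, SE 0.36, adjusted p = 0.03255), from 4 to 16 counts in CM to 25 to 47 counts in CM + Rux. Arrb1, the gene of β-arrestin 1, was higher as well (0.55, SE 0.09, adjusted p = 0.002654). Adam17 passed the adjusted p but not the fold change threshold (0.34, SE 0.08, adjusted p = 0.02525).

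IKK-16 was added to CM + Rux to block NF-κB activation. Cxcr4 was higher and Ccr7 was lower in CM + Rux + IKK-16 than in CM + Rux, and the other 6 genes were not called. The shares of all genes called were 4.07% higher and 3.66% lower. The table's calls numbered 504 higher and 453 lower, or 727 and 350 with scaling by total counts.

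Cxcr4 had 393, 237 and 282 CPM in CM + Rux + IKK-16, against 125, 95.1 and 110 CPM without IKK-16. The lowest of these samples was above every sample of CM, CM + Rux and CM + Rux 2 h, and 1 of them was within the range of the DMEM samples. The log2 fold change was 1.47 (SE 0.18, adjusted p = 0.0002512), or 2.76-fold, and Cxcr4 was called under all 14 alternatives. Ccr7 had 1.96, 3.70 and 1.81 CPM, each below the lowest CM + Rux sample at 5.04 CPM (log2 fold change -1.42, SE 0.36, adjusted p = 0.01573). The values of Ccr7 rest on 62 to 121 counts per sample with IKK-16 and 99 to 364 in CM + Rux. Its call was lost without CM + Rux replicate 2 (adjusted p = 0.07243), CM + Rux + IKK-16 replicate 1 (0.07403) or replicate 3 (0.06802). With the replicate block Ccr7 stayed lower (-1.43, adjusted p = 0.001204).

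Cxcr3 had 0.799, 1.07 and 1.02 CPM, all below the CM + Rux samples, and missed the threshold (log2 fold change -1.05, SE 0.36, adjusted p = 0.06665). DESeq2 called it lower (adjusted p = 0.02305), as did the fits without a filter (0.01751) and with only these groups (0.02683). Cx3cl1 had 13.6, 24.9 and 28.3 CPM, and the highest of these was within the CM + Rux range (log2 fold change -0.55, SE 0.27, adjusted p = 0.2036). In the fit with the replicate block both were lower, with log2 fold changes of -1.08 (adjusted p = 0.006126) for Cxcr3 and -0.58 (adjusted p = 0.02402) for Cx3cl1, so that 4 of the 8 genes were called. Ccrl2 had 345, 453 and 367 CPM (log2 fold change -0.37, SE 0.21, adjusted p = 0.2689). For Ccr1, Ccr2 and Cx3cr1 the log2 fold changes were 0.18 (95% interval -0.68 to 1.05), -0.03 (-0.53 to 0.46) and 0.04 (-0.74 to 0.83), and none of these intervals reaches the value of Cxcr4.

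Of the 8 ligands tested, 3 fell with IKK-16, where 4.07% of all genes were called higher and 3.66% lower. Ccl5 had 462 ± 76.7 CPM in CM + Rux and 111 ± 40.9 CPM with IKK-16 (log2 fold change -2.06, SE 0.26, adjusted p = 0.000304), Ccl4 had a log2 fold change of -1.45 (SE 0.34) and Ccl3 of -1.24 (SE 0.18). Ccl2 and Ccl7 had 258 ± 202 and 94.5 ± 90.1 CPM with IKK-16, with wide spreads and no call (adjusted p = 0.2849 and 0.6082). Plcb2, a phospholipase C that G proteins activate, was the only one of 14 genes of signal transduction that was called (higher, 0.63, SE 0.13), and 0 of the 13 genes that turn receptors off were called by edgeR, with 3 at an unadjusted p under 0.05.

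**Figure D3:**
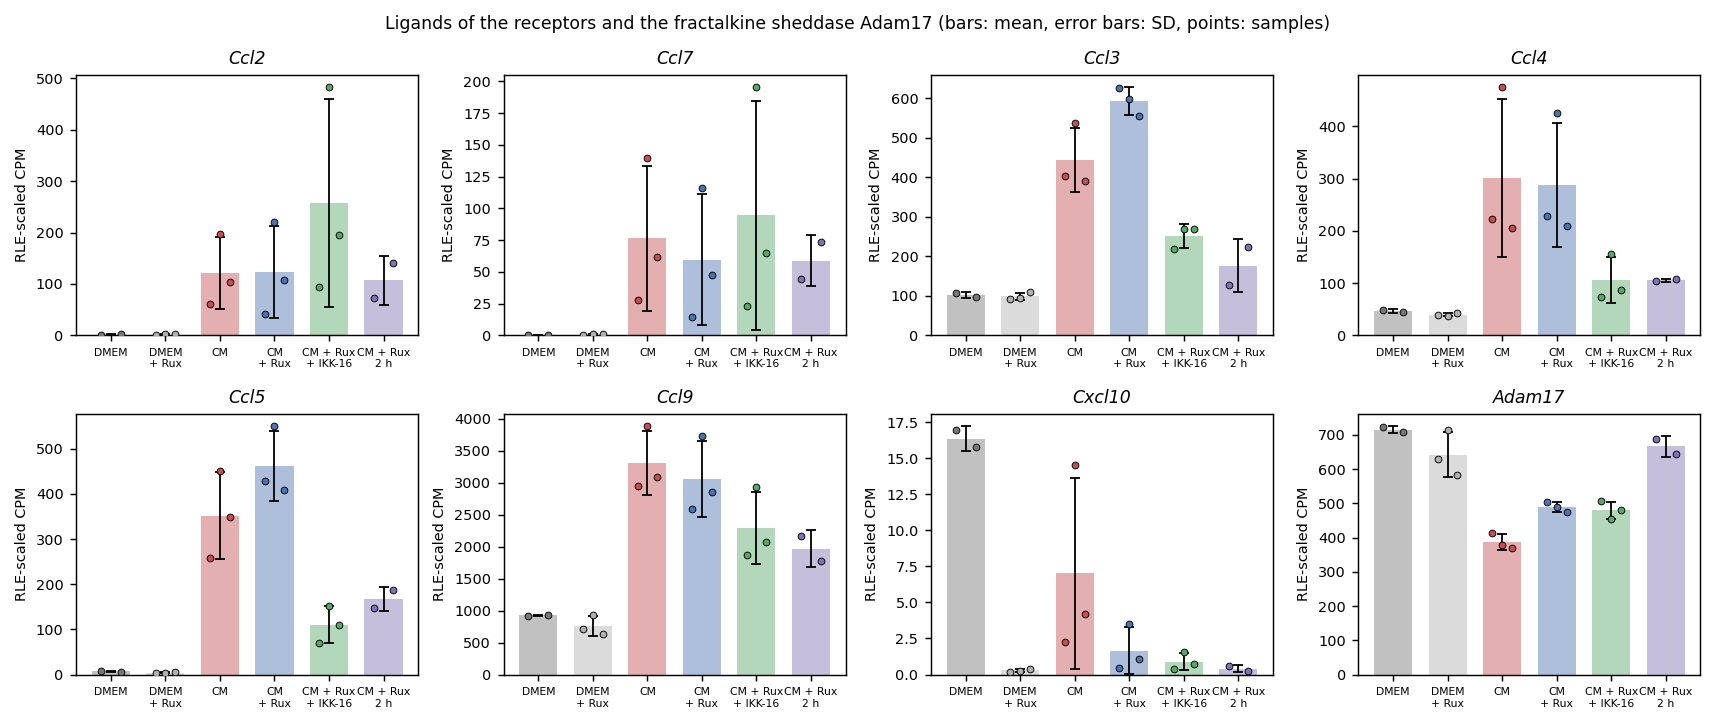
RLE-scaled CPM (vertical axes, linear, from 0) of 7 ligands of the receptors and of the sheddase gene Adam17 in the 6 groups, with bars for the mean, error bars for the SD and points for the samples. Ccl3, Ccl4 and Ccl5 were high in CM and CM + Rux and lower with IKK-16, and Cxcl10 was highest in DMEM and low in every group with ruxolitinib.

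Set against CM alone, the combination of both inhibitors gave higher Cxcr4 (log2 fold change 1.84, SE 0.18, adjusted p = 1.822e-05), Cx3cr1 (1.75, SE 0.38, adjusted p = 0.005229) and Cx3cl1 (0.88, SE 0.28, adjusted p = 0.03708), and lower Ccr2 (-0.97, SE 0.23, adjusted p = 0.008538). Among all genes 6.6% were called higher and 6.13% lower, or 1255 and 587 genes with scaling by total counts in place of 817 and 758. The Cx3cl1 samples overlapped between the groups, and its call was lost without CM replicate 1 (adjusted p = 0.1291), CM replicate 2 (0.07009), CM + Rux + IKK-16 replicate 2 (0.0874) or replicate 3 (0.1477), and with only these groups in the fit (0.07586). The samples of Ccrl2 were all higher with both inhibitors (log2 fold change 0.52, SE 0.21), but the adjusted p was 0.09077. In the fit with the replicate block, Ccrl2 (0.53, adjusted p = 0.0476) and Ccr1 (-0.86, adjusted p = 0.0006972) were called too. Cx3cl1 kept its call in that fit (0.87, adjusted p = 0.002798). Ccrl2 was also called higher with total-count scaling (adjusted p = 0.02488), without a filter (0.009876) and with only these groups (0.04666), Ccr1 was called lower without a filter (0.01808), and Cxcr3 was called higher without CM replicate 3 (0.04443). Of the ligands, 4 were lower, with Cxcl10 (-3.04, SE 0.73) ahead of Ccl5 (-1.67, SE 0.26), and Ccr3 was lower among the other receptors (-1.73, SE 0.43). Rgs2, a gene that turns receptors off, had the largest rise of the 3 genes of its list that were higher (1.02, SE 0.35).

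Ruxolitinib in DMEM served as the comparison without tumor factors. None of the 8 genes was called, 0 of them had an unadjusted p under 0.05 by edgeR, and DESeq2 called 0 as well. Genome-wide 0% of genes were called higher and 0.97% lower (0 and 120 genes), and 50 and 246 genes passed an unadjusted p under 0.05 with the same fold change threshold. The samples of the groups (n = 3 and n = 2) overlapped for each of the 8 genes, and the share of all genes that overlapped was not counted.

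Cxcr4 had 452, 359 and 426 CPM in DMEM + Rux, against 396 and 351 CPM in DMEM (95% interval of the log2 fold change -0.28 to 0.57). Cx3cr1 had 112, 119 and 46.7 CPM, with replicate 3 far below the others (-1.29 to 0.46), and Ccr2 had 38.0, 29.8 and 24.3 CPM (-0.73 to 0.33). Ccrl2 had 23.5, 25.9 and 39.3 CPM (-0.77 to 0.27). Cxcr3 had 2.40, 3.37 and 4.60 CPM (-0.07 to 1.53), and the interval of Cx3cl1 was -1.16 to 0.56. Ccr1, Cx3cl1 and Ccr7 had 2.22 to 6.51, 1.80 to 2.53 and 0.201 to 0.518 CPM in DMEM + Rux. Among the ligands, Cxcl10 fell from 17.0 and 15.8 CPM to 0.185, 0.268 and 0.389 CPM (log2 fold change -5.81, SE 0.89, adjusted p = 0.002372), and was the only gene of the pathway lists called.

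The effect of ruxolitinib in CM was compared with that in DMEM by the interaction of both in the model. By edgeR 0 of the 8 genes were called, and 5 had an unadjusted p under 0.05. The shares of genes called over the table were small, as 0.234% were called higher and 0.178% lower. Of the 12372 genes tested, 433 higher and 309 lower passed an unadjusted p under 0.05 with the same fold change threshold. The 5 genes were Cx3cr1 (log2 difference 2.12, SE 0.55, adjusted p = 0.1228), Cx3cl1 (1.73, SE 0.49, adjusted p = 0.1591), Ccrl2 (1.14, SE 0.32, adjusted p = 0.1546), Ccr1 (-1.57, SE 0.73, adjusted p = 0.5486) and Ccr2 (-0.73, SE 0.34, adjusted p = 0.548). Without DMEM replicate 1 the difference was -1.02 for Ccr1 and 1.10 for Cx3cl1, and without DMEM replicate 2 it was -2.28 for Ccr1. DESeq2 called Cx3cr1, Cx3cl1 and Ccrl2 higher in CM, with adjusted p of 0.04401, 0.0142 and 0.02617. In the fit with the replicate block 5 genes were called, Cx3cr1 (1.95, adjusted p = 0.0005127), Cx3cl1 (2.01, adjusted p = 0.008392) and Ccrl2 (1.19, adjusted p = 0.04384) higher and Ccr1 (-1.44, adjusted p = 0.02086) and Ccr2 (-0.88, adjusted p = 0.007162) lower. The same fit called 444 genes of the table in place of 51.

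**Figure D4:**
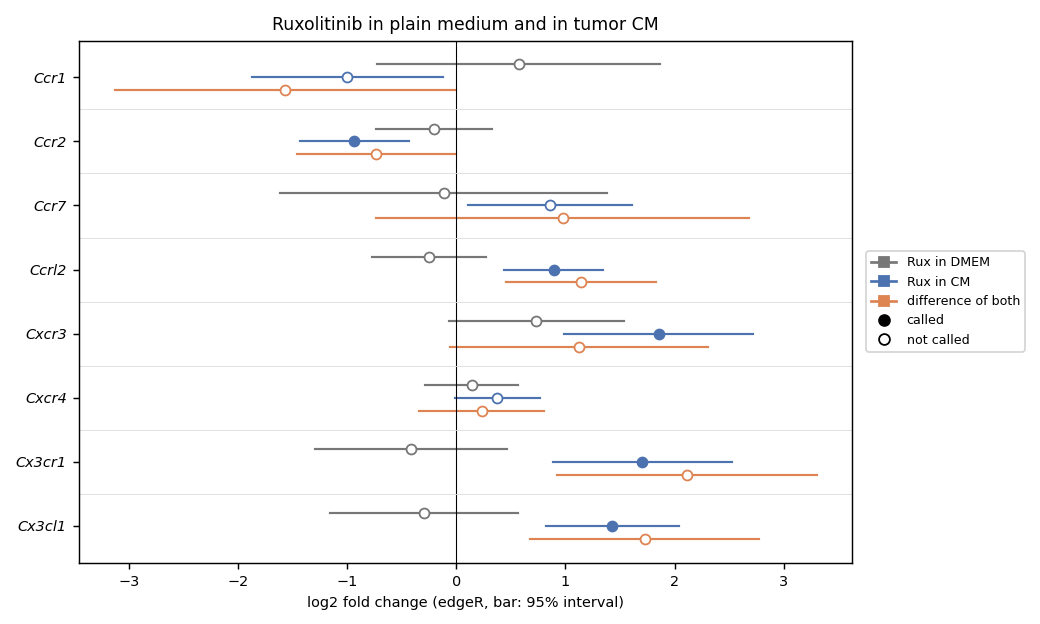
Log2 fold changes (horizontal axis) with ruxolitinib in DMEM and in CM, and the difference of both effects, for the 8 genes, with 95% intervals as lines and filled points where a gene was called. All points for DMEM are open. The intervals of the difference lie above 0 for Cx3cr1, Cx3cl1 and Ccrl2 and below 0 for Ccr1 and Ccr2, although each adjusted p was above 0.05.

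The samples with a label of 2 h were compared with the CM + Rux samples of 4 h. Ccrl2 was higher and Cxcr4 lower at 2 h, and the other 6 genes were not called. Between these groups 12.6% of all genes were called higher and 10.7% lower (1556 and 1327 genes, or 1339 and 1704 with scaling by total counts). By the study's methods, cells for RNA were exposed to CM with ruxolitinib for 4 h, and no such description of the 2 h samples was found in the sources used here. Ccrl2 had 796 and 809 CPM at 2 h, which by RPKM were the highest levels of any of the 8 genes in any sample (log2 fold change 0.68, SE 0.23, adjusted p = 0.03318). Cxcr4 had 77.5 and 71.8 CPM, both below the 4 h samples (-0.56, SE 0.20, adjusted p = 0.04329). Both calls were lost without either 2 h sample or without CM + Rux replicate 1 or 3, with adjusted p of 0.09919 to 0.1208 for Ccrl2 and 0.07661 to 0.1907 for Cxcr4. The call on Cxcr4 was also lost with TMM scaling (adjusted p = 0.05105) and with the replicate block, where the log2 fold change of -0.44 was under the threshold. Ccrl2 kept its call with the block (0.62, adjusted p = 0.03011).

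The remaining genes at 2 h did not pass the test, although Ccr1 was called lower with the replicate block (-1.05, adjusted p = 0.000408) and without a filter (-0.80, adjusted p = 0.03664). Cx3cr1 had 217 and 119 CPM (log2 fold change 0.34, SE 0.41) and Cxcr3 2.51 and 4.32 CPM (0.75, SE 0.37, adjusted p = 0.1261), with both Cxcr3 samples above those of 4 h. Ccr1 had 38.1 and 44.7 CPM (-0.80, SE 0.47, adjusted p = 0.1944), Ccr2 16.2 and 10.6 CPM, and Ccr7 5.05 and 4.50 CPM. Cx3cl1 had 26.9 and 33.8 CPM, both within the 4 h range (-0.10, 95% interval -0.76 to 0.55). Of the ligands, 4 were lower at 2 h, beside 10.7% of all genes. Ccl3 led them (-1.75, SE 0.21) and had 176 ± 68.1 CPM against 593 ± 35.0 CPM. Ccr9 was lower too (-1.06, SE 0.40). Among genes that turn receptors off, Rgs18 had the largest rise (1.55, SE 0.15) and Grk6 the only fall (-0.57, SE 0.12), and in signal transduction Gng2 (1.04, SE 0.15) and Plcb3 (-0.56, SE 0.11) led their directions.

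Over the 6 groups, the orders of mean levels differed between the genes. Ccrl2 was highest in CM + Rux 2 h, then in CM + Rux, CM + Rux + IKK-16, CM, DMEM and DMEM + Rux, where CM + Rux and CM + Rux + IKK-16 overlapped and so did both DMEM groups. Cxcr4 was highest in DMEM + Rux, DMEM and CM + Rux + IKK-16, which overlapped from one to the next, and then dropped to CM + Rux, CM and CM + Rux 2 h, again overlapping. Ccr1 was highest in CM, and all CM groups overlapped from one to the next in that order and were apart from both DMEM groups. For Ccr2, DMEM, DMEM + Rux and CM overlapped from one to the next, although CM did not overlap with DMEM. The groups with CM and ruxolitinib lay below them, with a narrow gap between 16.6 CPM in CM and 16.2 CPM in CM + Rux 2 h. Cx3cl1 and Ccr7 were highest in CM + Rux, and the break without overlap lay between the CM groups and the DMEM groups. Cx3cr1 had no break, since DMEM + Rux, with its low replicate 3, overlapped with CM. At the same replicate number, Cx3cr1 was higher in DMEM + Rux (112, 119 and 46.7 CPM) than in CM (46.8, 54.2 and 21.7 CPM) each time. Cxcr3 was highest in DMEM + Rux and CM + Rux 2 h, then in DMEM and CM + Rux, and lowest in CM + Rux + IKK-16 and CM. For Cxcr3, CM + Rux 2 h and DMEM were apart, as were CM + Rux and CM + Rux + IKK-16. DMEM overlapped with DMEM + Rux and with CM + Rux.

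The likeness of these orders was measured by the Pearson correlation of log2 CPM over the 16 samples, as a description. These samples share 6 treatments, so that genes that respond to CM resemble each other. Among the 8 genes the highest value was that of Ccrl2 with Cx3cl1 (r = 0.974), followed by Ccr7 with Ccrl2 (r = 0.958). Cx3cr1 and its ligand Cx3cl1 had r = 0.173. Of all genes tested, Ccr1 was most like Cd80 (r = 0.988), Hilpda and Emilin2, Ccrl2 most like Jdp2 (r = 0.992), Lpar1 and Ciapin1, and Cx3cl1 most like Jam2 (r = 0.979), with Tmem120b also among its closest 3. Ccr7 was most like Snapc2 (r = 0.985), Chic2 and Tmem123, and Cxcr4 most like Klhl21 (r = 0.978), Fbxo32 and Depdc7. The values were lower for Ccr2 with Sfxn5 (r = 0.936), Pik3cd and Arhgef11, for Cxcr3 with Tspan33 (r = 0.919), Hmgb3 and Ttc7b, and for Cx3cr1 with Slmap (r = 0.822), Prkcb and Rnf141.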

How the data were processed

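RNA-seq was analysed for 16 samples in 6 groups, taken with their replicate numbers from the labels. The authors trimmed reads with Trimmomatic 0.33, aligned them with HISAT2 2.1.0 to GRCm38 and counted fragments per gene (Ensembl release 100) with featureCounts 1.6.2, reverse-stranded and with both ends mapped. The deposited values are raw counts of 55487 genes, and 55141 identifiers matched a symbol in GENCODE M21, while the other 346 took up to 0.0459% of any sample's counts.

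The 12372 genes with more than 1 CPM in 2 or more samples were scaled by RLE and fitted by quasi-likelihood in edgeR 4.0.16 with limma 3.58.1 (R 4.3.3) in 1 model of all samples, with Benjamini-Hochberg adjustment over all genes tested. Called means an adjusted p under 0.05 and a log2 fold change beyond 0.5, and intervals are 95% intervals of the model. CPM and RPKM use RLE-scaled totals. Log2 CPM for correlations used a prior count of 2. The test was checked on data simulated from these counts. Named are the 8 genes, the called gene with the largest rise and fall of each pathway list, any ligand or sheddase, and the 3 genes most alike to each of the 8, and some genes that this rule names are not reported here. Members and lists were chosen with earlier results of these data known. No samples were copies of each other (chi-square per degree of freedom between replicates 15.1 to 58.5).

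Deviations from group means correlated in 34 of 35 pairs of samples with the same replicate number by more than 0.1 (median r = 0.319). Pairs with different numbers had a median r of -0.122. Deviations within a group sum to 0, so that these values are not independent of those for the same number. The 34 pairs include all those of CM, CM + Rux and CM + Rux + IKK-16, so the number was taken to pair these samples. Blocked values are given where they change a call and for calls lost with a sample left out. The alternatives were TMM and total-count scaling, no filter, filterByExpr, the replicate block, only the groups compared, DESeq2 1.42.0, each sample left out and, chosen after seeing the data, the filter on scaled CPM. Plots were drawn in matplotlib 3.10.9 (Python 3.11.15), from tables handled in numpy 2.4.6 and pandas 2.3.3.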

Additional observations from a re-analysis of the deposited data

How the results depend on the processing

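Of the log2 fold changes of the 8 genes under alternatives, 716 kept direction and call, 29 gained a call, 36 lost it and 18 changed sign, and the causes were not tested. In CM against DMEM 7 or 8 genes were called under every alternative, and in DMEM + Rux against DMEM 0 under every one. For CM + Rux against CM, 3 genes were called with only the groups compared, 2 to 4 with each sample left out, and 7 without a filter or with the replicate block, in place of 5. For CM + Rux + IKK-16 against CM, 3 to 5 were called with each sample left out, 5 with total-count scaling and 6 without a filter or with the replicate block, in place of 4. For CM + Rux + IKK-16 against CM + Rux, 4 were called with the replicate block, 3 without a filter, with only these groups or with DESeq2, and 1 to 2 with each sample left out, in place of 2. For CM + Rux 2 h against CM + Rux, 1 was called with TMM scaling and 0 to 2 with each sample left out, in place of 2, and the replicate block lost Cxcr4 (-0.44, adjusted p = 0.008994) and added Ccr1 (-1.05, adjusted p = 0.000408). For the interaction, 3 were called without a filter, 3 with DESeq2 and 5 with the replicate block, in place of 0, and 0 with each sample left out. The block changed no other call of the 8 genes than those given here and above.

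The sign changed only for values that were not called in either fit. With IKK-16 against CM + Rux, Ccr2 was 0.058 with total-count scaling and, with each sample left out, -0.18 to 0.088 for Ccr2, -0.14 to 0.57 for Ccr1 and -0.16 to 0.21 for Cx3cr1. At 2 h against 4 h these ranges were -0.12 to 0.49 for Ccr2, -0.17 to 0.70 for Cx3cr1 and -0.27 to 0.054 for Cx3cl1. For ruxolitinib in DMEM they were -0.67 to 0.60 for Ccr7, -0.51 to 0.035 for Ccrl2 and -0.68 to 0.33 for Cx3cl1. Over the whole table, calls for CM + Rux against CM went from 412 to 685 without a filter, 745 with the block and 243 to 486 with each sample left out, and those of the interaction from 51 to 90 (total counts), 349 (no filter), 444 (block), 237 (DESeq2) and 17 to 114 (each sample left out). Where a sample left out leaves 1 in a group, that sample is assumed to vary like the other groups. Low counts limit Ccr7 in DMEM and Cxcr3 in CM.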
